A study of Mus musculus with 6 samples.

Results

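The subject of this report is Trim44 and the 7 protein-coding genes around it on mouse chromosome 2, which are Traf6, Prr5l, Commd9, Ldlrad3, Fjx1, Pamr1 and Slc1a2. They make up 8 of the 32028 genes in the count table. Trim44 was chosen because it had no counts in any knockout clone, so its values are given as a description without a test. The other genes were chosen by position, as the stretch of GRCm38 from the start of Traf6 to the end of Slc1a2 (101678429 to 102790784). The study made RNA libraries from clonal lines of mouse embryonic fibroblasts (MEFs), cells grown from the connective tissue of embryos, to ask about Macf1, a large protein that links actin filaments to microtubules. The 3 knockout clones came from Macf1flox/flox mice and the 3 het clones from Macf1flox/+ mice, which leaves the het clones an intact Macf1 allele after Cre. All 6 lines, controls included, carry SV40 large T antigen as an immortalising gene and were exposed to AAV8-CMV-Cre, an adeno-associated virus in which a general promoter drives Cre recombinase. Each line was raised as a colony from a single cell. The sources used here do not give the number of embryos or cultures behind the clones. Genotype and parental culture therefore cannot be told apart, and p-values measure the spread between clones.

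TRIM proteins are a family of ubiquitin-related proteins built from zinc-binding B-boxes and a coiled coil, most of them with a RING domain that transfers ubiquitin. TRIM44 lacks that RING domain, carries a ubiquitin-binding zinc finger of the kind found in ubiquitin proteases in its place, and is known for stabilising other proteins. Its neighbours act in other processes. TRAF6 is a ubiquitin ligase that carries signals from interleukin-1 and Toll-like receptors towards NF-kappaB. PRR5L binds the mTORC2 kinase complex, COMMD9 belongs to the complexes that recycle membrane proteins from endosomes, and LDLRAD3 is a small membrane protein of the low-density lipoprotein receptor family. FJX1 is the mammalian counterpart of the fly protein Four-jointed, a Golgi kinase that acts on the cadherins Fat and Dachsous. PAMR1 is a secreted protein with a peptidase-like domain that was named for its link to muscle regeneration. SLC1A2 is the main glutamate transporter of astrocytes.

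The sequences just upstream of Trim44 and of Ldlrad3, the nearest protein-coding gene on the side of lower coordinates, are shown because the first gene was without counts in knockout clones and the second was not. Each holds the 250 bases before the RefSeq start (GRCm38.p6, minus strand, written 5′ to 3′), at chr2:102400901-102401150 for Trim44 and chr2:102186461-102186710 for Ldlrad3. Capitals mark the dinucleotide CG, the site of DNA methylation in mammals.
Trim44: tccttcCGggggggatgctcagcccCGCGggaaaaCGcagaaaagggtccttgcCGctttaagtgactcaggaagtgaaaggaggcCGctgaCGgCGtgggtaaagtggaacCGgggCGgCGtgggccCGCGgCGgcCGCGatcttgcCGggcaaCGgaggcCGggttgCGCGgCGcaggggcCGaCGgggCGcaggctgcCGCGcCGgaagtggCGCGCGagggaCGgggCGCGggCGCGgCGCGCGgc
Ldlrad3: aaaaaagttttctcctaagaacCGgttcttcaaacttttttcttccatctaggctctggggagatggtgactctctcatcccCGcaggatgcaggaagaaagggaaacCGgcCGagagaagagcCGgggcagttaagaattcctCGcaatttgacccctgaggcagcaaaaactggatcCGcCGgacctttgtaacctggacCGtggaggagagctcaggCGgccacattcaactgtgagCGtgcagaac
The Trim44 window holds 39 CG dinucleotides and is 74.4% G or C. Over 32851 RefSeq promoters the median was 6, and 98.4% had fewer than Trim44. The Ldlrad3 window holds 11 CG dinucleotides at 52.4% G or C, and 64.4% of promoters had fewer. Of the 8 genes, 6 had a promoter entry in the table. Traf6 had 13 CG dinucleotides, Commd9 had 11, the 3 entries of Prr5l had 1, 2 and 10, and the entry of Slc1a2 had 1. That Slc1a2 entry begins downstream of the start of the transcript that carried its counts. Both shown windows were searched on both strands for 4 short motifs. The letters GGGCGG, a GC box, lie at bases -136 to -131 of the Trim44 window (counted back from the start) and in 32.7% of all promoters of this length. CCGGAAGT, the core of an ETS factor site, lies at -45 to -38 and in 2.88% of promoters. TGACTCA, an AP-1 site, lies at -187 to -181 and in 4.46% of promoters. These matches do not overlap. The core promoter letters TATAAA are in 12.4% of promoters and not in the Trim44 window, and none of the 4 motifs is in the Ldlrad3 window.

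The 6 libraries held 15661342 to 18209673 estimated counts. Macf1 stood at 309, 363 and 322 CPM in the knockout clones, against 693, 696 and 579 CPM in the het clones (log2 fold change -0.99, SE 0.13, adjusted p = 0.00307, edgeR's quasi-likelihood test). CPM express the counts relative to the TMM-scaled size of each library. Markers of the labelled cell type were uneven. Vim averaged 2866 CPM in knockout and 2425 CPM in het clones and Fn1 averaged 4269 CPM in knockout and 5774 CPM in het clones. By contrast, Col1a1 averaged 7.40 CPM in knockout and 1229 CPM in het clones, and Thy1 had no counts in knockout clones and 1 count in het clones. The 10 fibroblast markers summed to 5641 to 8161 CPM in knockout and 9183 to 12907 CPM in het clones. Of the 9 tested, 6 were called lower in knockout clones (66.7%, against 14.2% of all genes called lower). Among these 6, Col1a2 had 14, 20 and 7 counts in knockout clones. It thus entered the test only with het clones, where it is high. The 5 epithelial markers summed to 0.185 to 0.488 CPM in knockout and 0.239 to 1.18 CPM in het clones, and the 4 endothelial markers to 2.50 to 3.15 CPM in knockout and 1.26 to 2.70 CPM in het clones. The 4 blood markers summed to 4.95 to 5.72 CPM in knockout and 4.61 to 6.08 CPM in het clones, with Adgre1 at 0 in all clones. In the fit over all 12745 tested genes, 3585 (28.1%) were called at an adjusted p below 0.05, with 1771 (13.9%) higher and 1814 (14.2%) lower in knockout clones. That count was 1892 without knockout replicate 1, 1566 without knockout replicate 2 and 2227 without het replicate 2.

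In positional order, the 4 genes on the side of lower coordinates were transcribed in both genotypes, Trim44, Fjx1 and Pamr1 had no counts in knockout clones, and Slc1a2 was lower there. Of the 7 neighbours, 5 were tested, and 1 of them, Slc1a2, was called, beside 28.1% of all genes. Slc1a2 entered the test only through the het clones, where it is high, so this count says nothing about the neighbours as a set. Fjx1 and Pamr1 had too few clones with enough counts to pass the filter on low counts.

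**Figure D1:**
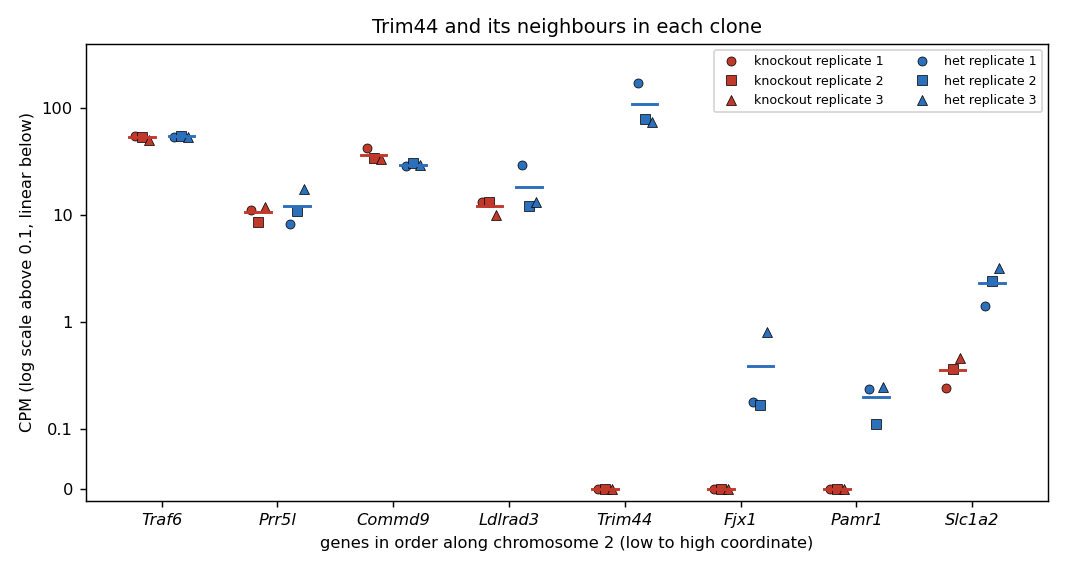
Level of each gene in CPM (log scale above 0.1, linear below) in each of the 3 knockout clones (red) and 3 het clones (blue), with genes in order along chromosome 2 and the bar at the mean of a genotype. Trim44, Fjx1 and Pamr1 sit at 0 in the knockout clones, Slc1a2 is lower in every knockout clone than in any het clone, and the 4 genes from Traf6 to Ldlrad3 stand within a few fold of each other between genotypes.

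Traf6 (chromosome 2, 101678429 to 101701669, plus strand) had 55.5, 54.3 and 50.7 CPM in knockout clones, against 54.3, 55.7 and 54.4 CPM in het clones. The clones of the genotypes overlapped, and the log2 fold change of -0.03 (SE 0.09) did not pass (adjusted p = 0.792, edgeR's quasi-likelihood test). In the next gene, Prr5l (101714285 to 101883027, minus strand), knockout clones had 11.3, 8.74 and 11.9 CPM and het clones 8.38, 10.9 and 17.5 CPM. Het replicate 3 was the highest and het replicate 1 the lowest, so the het clones enclosed the knockout clones, and the difference of -0.20 on the log2 scale (SE 0.29) did not pass (adjusted p = 0.645, edgeR's quasi-likelihood test).

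Commd9 (101886247 to 101901646, plus strand) had 42.8, 34.6 and 33.5 CPM in knockout clones, against 29.0, 30.6 and 29.8 CPM in het clones. The genotypes did not overlap, as in 47.5% of all tested genes. The log2 fold change of 0.31 (SE 0.12) did not pass over all genes (adjusted p = 0.102, edgeR's quasi-likelihood test). On the deposited FPKM values (scaled for depth and transcript length) it did, at 0.40 with limma on log2(FPKM + 1) (adjusted p = 0.0422) and 0.41 on log2(FPKM + 0.1) (adjusted p = 0.0428). Ldlrad3 (101950203 to 102186385, minus strand) had 13.4, 13.3 and 10.03 CPM in knockout clones, against 29.4, 12.3 and 13.3 CPM in het clones. Het replicate 1 stood above the other clones, and the remaining het clones lay among the knockout clones. The log2 fold change was -0.58 (SE 0.36, adjusted p = 0.260, edgeR's quasi-likelihood test) with all clones and -0.07 (adjusted p = 0.813) without het replicate 1.

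Trim44 (102300119 to 102407828, minus strand) had 0, 0 and 0 counts in knockout clones, against 2907, 1425 and 1189 counts in het clones, which are 174, 80.1 and 74.6 CPM. A count of 0 over the 3 knockout libraries allows up to 0.0577 CPM (a floor of 3 counts over the group, for counting error only). Set against that floor, the het mean of 110 ± 55.9 CPM (SD, n = 3) makes Trim44 at least 1898-fold lower in the knockout clones. In the deposited FPKM values its main transcript was listed at 0 in every knockout clone, against 30.9, 14.4 and 13.7 FPKM in het clones. The level was not even within the het clones, where replicate 1 stood above both others. Without het replicate 1 the bound is 1340-fold. In bulk RNA, fewer cells that express a gene and less RNA per cell cannot be told apart, a limit that bears on the graded het levels here and on Slc1a2 below.

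Of the 3 annotated transcripts of Trim44, 1 carried nearly all counts. Trim44-201, with 5 exons and 5612 bases, had 2905, 1423 and 1189 estimated counts in het clones, the short Trim44-203 had 2.0, 2.1 and 0, and Trim44-202 had none. No Trim44 transcript had a count in a knockout clone. A processed pseudogene, Gm13868 (102311914 to 102312207), lies within Trim44 and overlaps none of its exons. It had 1 count over the knockout clones and 3 over the het clones. The authors' deposited table lists a log2 fold change of -13.84 for Trim44-201 (the direction, knockout over het, was read from the signs, which match the counts in 23922 of 24536 transcripts).

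Fjx1 (102449366 to 102452499, minus strand, a single exon) had 0, 0 and 0 counts in knockout clones, against 3, 3 and 13 counts in het clones. Its het mean of 0.388 ± 0.370 CPM (SD, n = 3) makes it at least 6.72-fold lower in the knockout clones, by the same floor. Het replicate 3 holds most of these counts, and without it the bound is 3.02-fold. Pamr1 (102550012 to 102643041, plus strand) had 0, 0 and 0 counts in knockout clones, against 4, 2 and 4 in het clones, a mean of 0.201 ± 0.0768 CPM (SD, n = 3) that makes it at least 3.48-fold lower in the knockout clones. Both genes were near the detection limit in het clones too, where single libraries had a floor of 0.155 to 0.188 CPM. With no filter other than a count above 0, Fjx1 passed (log2 fold change -5.73, adjusted p = 0.0382) and Pamr1 did not (-4.81, adjusted p = 0.0529, both edgeR's quasi-likelihood test). These fitted values depend on how a count of 0 is treated and are not bounds.

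Slc1a2 (102658659 to 102790784, plus strand) had 4, 6 and 9 counts in knockout clones, against 24, 43 and 51 counts in het clones. This was 0.244, 0.369 and 0.465 CPM in knockout clones and 1.44, 2.42 and 3.20 CPM in het clones. Every knockout clone lay below every het clone. The log2 fold change was -2.67 (SE 0.45, adjusted p = 0.00704, edgeR's quasi-likelihood test), and -2.93 to -2.39 in the 12 alternative fits that kept the gene. No knockout clone reached the filter's minimum of 10 counts, so a gene this low in knockout clones could enter the test only by being high in het clones. Summed counts gave a het over knockout ratio of 6.40 (95% interval 3.92 to 11.004, counting error only).

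Levels of different genes can be set side by side per kilobase of transcript. In knockout clones Commd9 was highest at 36.0 ± 4.53 CPM per kb (SD, n = 3), followed by Traf6 at 9.14 ± 0.320, Prr5l at 3.62 ± 0.596, Ldlrad3 at 3.33 ± 0.489 and Slc1a2 at 0.0310 ± 0.00957 CPM per kb. Prr5l and Ldlrad3 overlapped there, and the other neighbours in this order did not. In het clones the order was Commd9 at 28.9 ± 0.801 CPM per kb, Trim44 at 19.7 ± 10.02, Traf6 at 9.37 ± 0.177, Ldlrad3 at 5.09 ± 2.56, Prr5l at 4.01 ± 1.70, Slc1a2 at 0.419 ± 0.180, Fjx1 at 0.124 ± 0.118 and Pamr1 at 0.121 ± 0.0486 CPM per kb. Het levels of Trim44 ran between 13.3 and 31.2 CPM per kb and overlapped those of Commd9. Ldlrad3 overlapped Prr5l, Slc1a2 overlapped Fjx1, and Fjx1 overlapped Pamr1. Traf6 overlapped neither Trim44 nor Ldlrad3. Trim44 was thus the second gene of the 8 by mean level in het clones and among the 3 without counts in knockout clones.

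Transcripts of the neighbours were tested in their own fit, in which 2752 of 34761 transcripts (7.92%) passed. Of 10 tested neighbour transcripts, 1 passed. Slc1a2-202, with 11 exons and 11595 bases, averaged 0.369 ± 0.110 CPM in knockout clones and 2.09 ± 0.921 CPM in het clones (SD, n = 3 each), a log2 fold change of -2.47 (SE 0.51, adjusted p = 0.0382, edgeR's quasi-likelihood test). Like the gene, it entered the test only through the het clones. Its call was lost with no filter on low counts (adjusted p = 0.0647) and without knockout replicate 1 (0.126), 2 (0.136) or 3 (0.0749) or het replicate 2 (0.106) or 3 (0.118). All 19 counts of Slc1a2 in knockout clones fell on this transcript. Commd9-201, the main transcript of its gene, averaged 35.6 ± 5.95 CPM in knockout clones and 27.3 ± 1.52 CPM in het clones (log2 fold change 0.38, adjusted p = 0.189, edgeR's quasi-likelihood test). The 2 full-length transcripts of Ldlrad3 split its counts differently. Ldlrad3-202 averaged 2.98 ± 2.01 CPM in knockout and 6.83 ± 1.81 CPM in het clones (-1.20 on the log2 scale, adjusted p = 0.321, edgeR's quasi-likelihood test). Ldlrad3-201 averaged 8.94 ± 0.391 CPM in knockout and 9.66 ± 8.31 CPM in het clones, with 18.995 CPM in het replicate 1 (-0.11 on the log2 scale, adjusted p = 0.934, edgeR's quasi-likelihood test). Their exons overlap almost fully, so the split between the transcripts is an estimate. The authors' deposited table lists adjusted p-values of 0.426 for Commd9-201 and 0.226 for Commd9-203, of 0.899 for Ldlrad3-201 and 0.148 for Ldlrad3-202, and of 1 for Traf6-201 and Prr5l-201. Traf6-201 carried 872 to 961 counts in knockout and 847 to 983 counts in het clones. Prr5l-209, which begins upstream of the other counted Prr5l transcripts, had 0, 25.5 and 0 counts in knockout clones, against 5.0, 84.4 and 0 counts in het clones.

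**Figure D2:**
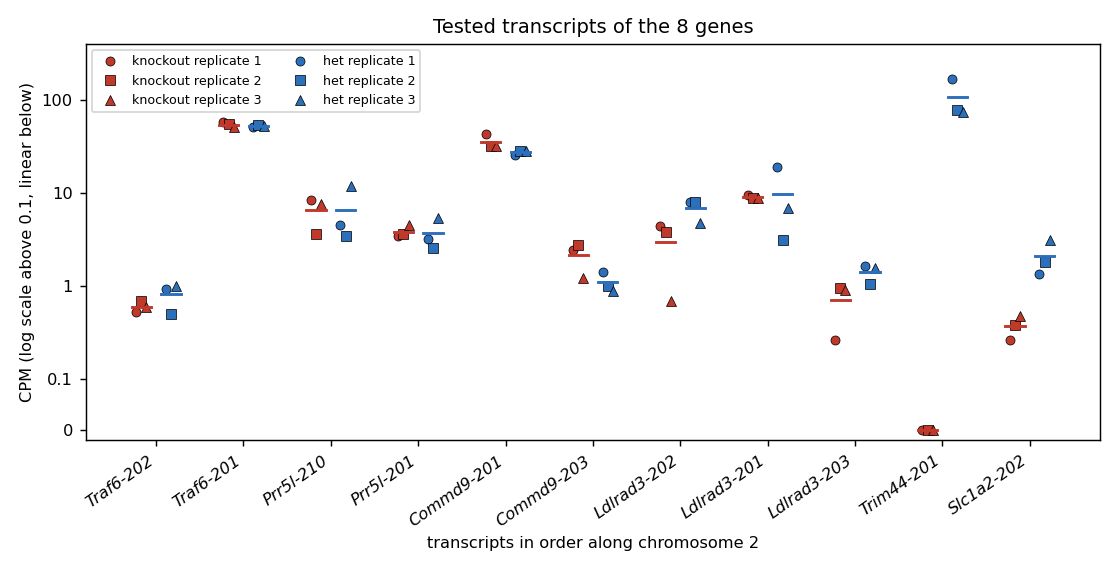
Level of each tested transcript of the 8 genes in CPM (log scale above 0.1, linear below) in the 3 knockout clones (red) and 3 het clones (blue), in order along the chromosome, with the bar at the mean of a genotype. Trim44-201 lies at 0 in every knockout clone, Slc1a2-202 is lower in every knockout clone than in any het clone, and het replicate 1 is the highest het clone for Trim44-201 and Ldlrad3-201.

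The het clones differed among themselves in Trim44 and Ldlrad3. Het replicate 1 over the mean of het replicates 2 and 3 was 2.25 for Trim44 (95% interval of the pooled ratio 2.13 to 2.37, counting error only) and 2.30 for Ldlrad3 (2.03 to 2.64). The other genes did not share this higher level. The same ratio was 0.986 for Traf6 (0.909 to 1.07) and 0.961 for Commd9 (0.860 to 1.07). Prr5l and Slc1a2 were lower in het replicate 1, at 0.590 (0.491 to 0.723) and 0.512 (0.315 to 0.814). Fjx1 and Pamr1 had too few counts for a ratio of use. A ratio of 2 or more was found in 420 of 12727 tested genes with counts in these clones (3.30%). Het replicate 1 was at least 2-fold below the mean of the other het clones in 919 (7.21%). With 1 clone against 2 this is a description of these libraries.

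Beyond the 8 genes, the borders of the stretch were tested genes that did not pass. B230118H07Rik, just outside on the lower side, averaged 20.98 ± 2.16 CPM in knockout and 17.3 ± 0.945 CPM in het clones (log2 fold change 0.28, adjusted p = 0.153, edgeR's quasi-likelihood test). Cd44, a hyaluronan receptor just outside on the higher side, averaged 348 ± 112 CPM in knockout and 435 ± 23.4 CPM in het clones (-0.32, adjusted p = 0.346, edgeR's quasi-likelihood test). It lies 0.403 Mb from Trim44 and was among the abundant genes of both genotypes. Within 5 Mb of Trim44, 32 genes were tested, of which 4 were higher and 5 lower in knockout clones, a share of 28.1% as over all genes. Their median log2 fold change was -0.11, against -0.06 over 1034 tested genes of chromosome 2 and -0.00 over all. All 9 calls lay on the side of higher coordinates, where 26 genes were tested, and the lower side had 6 tested genes. Of the 5 genes called lower, Slc1a2 and Cd59a entered the test only with het clones, where they are high. With library totals in place of scaling 3 were higher and 6 lower. With knockout replicate 1 left out 5 genes were called, and with knockout replicate 2 left out 4.

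The 5 non-members with the lowest adjusted p there moved in both directions. Prrg4, a membrane protein gene, averaged 48.7 ± 8.11 CPM in knockout and 13.2 ± 4.19 CPM in het clones (log2 fold change 1.88, adjusted p = 0.00346, edgeR's quasi-likelihood test). Eif3m, a subunit of a translation initiation factor, averaged 222 ± 35.6 CPM in knockout and 139 ± 4.01 CPM in het clones (0.68, adjusted p = 0.0104, edgeR's quasi-likelihood test). Cd59a, a complement inhibitor, averaged 1.14 ± 0.557 CPM in knockout and 5.9997 ± 2.50 CPM in het clones (-2.38, adjusted p = 0.0138, edgeR's quasi-likelihood test, and 0.0622 without knockout replicate 2). Its counts in knockout clones were 9, 20 and 32. Knockout replicate 1 was thus under the filter's minimum count, so Cd59a entered the test only with het clones, where it is high. Apip, an enzyme of methionine salvage, was lower by a log2 fold change of -0.64 (adjusted p = 0.0132, edgeR's quasi-likelihood test, and 0.0558 without knockout replicate 2). Rcn1, a calcium-binding protein of the endoplasmic reticulum, was lower at -1.99 (adjusted p = 0.0182, edgeR's quasi-likelihood test, and 0.0541 without knockout replicate 1).

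**Figure D3:**
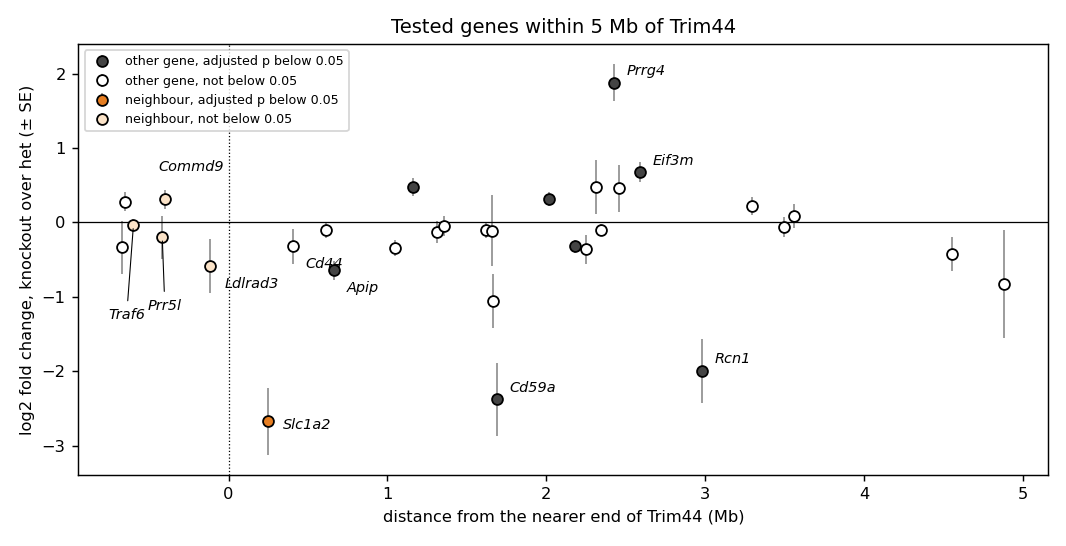
Log2 fold change, knockout over het, with its SE, of each tested gene within 5 Mb of Trim44, against distance from the nearer end of Trim44 in Mb, with the neighbours in orange shades and genes at an adjusted p below 0.05 filled dark. Slc1a2 is the called gene closest to Trim44 at a log2 fold change of -2.67, Cd44 beyond it stands at -0.32, and called genes farther out lie above and below 0.

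How often genes had no counts in a genotype depended on their level in the other. Of 14644 genes with at least 10 summed het counts, 236 (1.61%) had none in knockout clones. For 10 to 19 summed counts, the class of Fjx1 and Pamr1, 82 of 1155 genes (7.10%) had none in knockout clones, and 31 of 1113 genes (2.79%) had none in het clones while holding as many in knockout clones. For 5000 or more, the class of Trim44, 3 of 2576 genes (0.116%) had none in knockout clones, and 0 of 2767 had none in het clones. The other two were Hoxd13 and Gm10184, and these were singled out by their values. Among the 54 tested genes without counts in knockout clones Trim44 had the second highest mean het level.

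**Figure D4:**
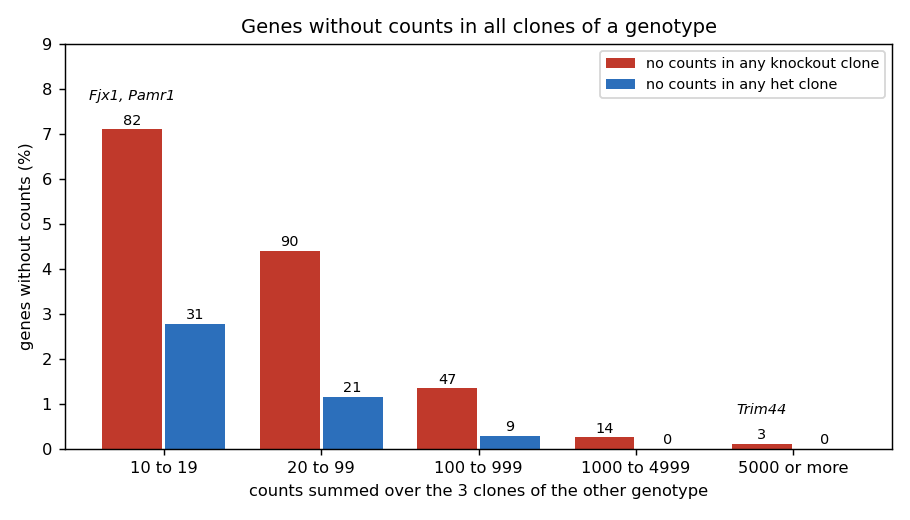
Percent of genes without counts in any knockout clone (red) or in any het clone (blue), by the counts summed over the 3 clones of the other genotype, with the number of genes above each bar. The share falls with level, and the 5000 or more class holds 3 genes without counts in knockout clones, Trim44 among them, and 0 without counts in het clones.

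Likeness to Trim44 was measured as the Euclidean distance in log2(CPM + 0.1) over the 6 clones. The 40 candidates were tested genes with no counts in knockout clones and a regular symbol (no Gm number, Rik or pseudogene name). The knockout clones therefore add nothing to any distance, which compares the levels of the 3 het clones alone. The closest was Hoxa11, a homeobox gene of limb and uterus, at 93.1, 42.0 and 44.5 CPM in het clones (distance 1.49). As for Trim44, het replicate 1 was the highest. Arsj, a sulfatase gene, followed at a distance of 1.82 and Ebf3, a transcription factor gene, at 2.22. Cyba, a subunit of the NADPH oxidase, stood at 2.99 and Ifi202b, an interferon-inducible gene, at 3.21. In Ebf3, Cyba and Ifi202b het replicate 1 was the lowest, at 42.6, 26.1 and 22.0 CPM, unlike in Trim44. The 5 genes lie on chromosomes 6, 3, 7, 8 and 1.

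Other genes of the families and pathways were read from the same fit. Of 62 TRIM family genes besides Trim44, 44 were tested, with 8 higher and 6 lower in knockout clones (31.8%, close to the 28.1% of all genes, median log2 fold change 0.18). Trim46, a microtubule-associated protein of axons, averaged 4.85 ± 0.236 CPM in knockout and 16.5 ± 3.61 CPM in het clones (log2 fold change -1.76, adjusted p = 0.00222, edgeR's quasi-likelihood test). Trim8 averaged 67.2 ± 0.936 CPM in knockout and 37.5 ± 6.65 CPM in het clones (0.84, adjusted p = 0.00681, edgeR's quasi-likelihood test). The family's count of 14 was 4 without knockout replicate 1 or 2, 8 without knockout replicate 3 and 7 without het replicate 2 or 3. Of the called genes, Trim66 had 7 counts over the knockout clones and 53 over the het clones. Trim66 entered the test only through the het clones, where it is high. Trim36 (0.183 CPM in knockout replicate 1) and Trim30d (0 CPM in het replicate 1) likewise needed the genotype where they are high.

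Of the TRAF6 pathway, from receptors to kinases, 42 of 47 genes besides Traf6 were tested, and 7 were higher and 7 lower (33.3%, close to the 28.1% of all genes, median 0.06). With library totals in place of scaling, 4 were higher and 7 lower. Tab2, an adaptor that binds ubiquitin chains made by TRAF6, averaged 95.1 ± 2.93 CPM in knockout and 169 ± 10.8 CPM in het clones (-0.83, adjusted p = 0.00154, edgeR's quasi-likelihood test). The interleukin-1 receptor genes moved in opposite directions. Il1rap, the shared co-receptor, averaged 58.0 ± 2.60 CPM in knockout and 23.3 ± 4.50 CPM in het clones (1.31, adjusted p = 0.00206, edgeR's quasi-likelihood test), and Il1r1, which binds the ligand, averaged 21.5 ± 3.08 CPM in knockout and 75.0 ± 18.8 CPM in het clones (-1.80, adjusted p = 0.00210, edgeR's quasi-likelihood test). The pathway's count of 14 was 9 without knockout replicate 1 or 3 and 8 without knockout replicate 2 or het replicate 2. Among the 7 lower, Tlr6 had 6 counts over the knockout clones and 97 over the het clones, and Irak3 had 5 and 172. Both entered the test only through the het clones, where they are high.

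All 21 genes of the COMMD family and its partner complexes besides Commd9 were tested, with 4 higher and 2 lower (28.6%, about the 28.1% of all genes, median 0.05), a count of 3 without knockout replicate 2. Commd3 averaged 90.4 ± 7.22 CPM in knockout and 45.3 ± 4.88 CPM in het clones (0.996, adjusted p = 0.00223, edgeR's quasi-likelihood test). Vps35l, the large subunit of retriever, averaged 122 ± 1.46 CPM in knockout and 85.4 ± 3.01 CPM in het clones (0.51, adjusted p = 0.00533, edgeR's quasi-likelihood test). Of mTORC2 and its substrates, 16 of 17 genes were tested, with 2 higher and 5 lower (43.8%, against 28.1% of all genes, median -0.19), a count of 2 without knockout replicate 1 or 2 or het replicate 2 or 3. The kinase gene Sgk1 averaged 73.0 ± 25.4 CPM in knockout and 461 ± 89.8 CPM in het clones (-2.66, adjusted p = 0.00223, edgeR's quasi-likelihood test). Ndrg1, whose product is a substrate of that kinase, averaged 29.0 ± 4.21 CPM in knockout and 69.3 ± 8.62 CPM in het clones (-1.26, adjusted p = 0.00223, edgeR's quasi-likelihood test).

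Of the low-density lipoprotein receptor family besides Ldlrad3, 17 of 22 genes were tested, with 5 higher and 2 lower (41.2%, against 28.1% of all genes, median -0.06). That count of 7 was 3 without knockout replicate 1 or het replicate 2 or 3 and 2 without knockout replicate 2. Lrp12 averaged 74.1 ± 6.25 CPM in knockout and 32.3 ± 3.99 CPM in het clones (1.20, adjusted p = 0.00154, edgeR's quasi-likelihood test). Vldlr, a receptor for lipoproteins and reelin, had 1 count over the knockout clones and 983 over the het clones, a het over knockout ratio of 1013 (95% interval 181 to 40043, counting error only). Its het levels were uneven (42.0, 3.32 and 13.9 CPM), and without het replicate 1 the ratio was 433 (77.1 to 17159). It entered the test only through the het clones. Its call (adjusted p = 0.00764, edgeR's quasi-likelihood test) was lost without knockout replicate 2 (0.0681) and with limma-voom (0.0593). Of 8 genes listed for the Fat and Dachsous pathway, in which FJX1 acts, 5 were tested, with 1 higher and 2 lower (60%, against 28.1% of all genes, median -0.15). These were the cadherin genes Fat1, Fat4 and Dchs2, and beside them Lix1l and Dlg5. Dlg5 was lower at -0.28 (adjusted p = 0.0491, edgeR's quasi-likelihood test), a call lost in 11 of its 15 alternative fits. Fat4 averaged 7.53 ± 8.16 CPM in knockout and 148 ± 35.5 CPM in het clones (-4.28, adjusted p = 0.0157, edgeR's quasi-likelihood test). It stood at 0.0515 without knockout replicate 2, and its log2 fold change was -5.71 without knockout replicate 3. Fat1 averaged 847 ± 163 CPM in knockout and 466 ± 121 CPM in het clones (0.86, adjusted p = 0.0362, edgeR's quasi-likelihood test) and was not called without knockout replicate 1 (0.113), knockout replicate 2 (0.106), het replicate 1 (0.0503), het replicate 2 (0.0753) or het replicate 3 (0.0618). The list's count of 3 was 1 without knockout replicate 1 or het replicate 2 or 3 and 0 without knockout replicate 2.

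Of 10 transporters and enzymes of glutamate, glutamine or neutral amino acids reported besides Slc1a2, 7 were tested, with 0 higher and 6 lower in knockout clones (85.7%, against 14.2% of all genes called lower), a median log2 fold change of -3.08. Slc1a3, the other main astrocyte glutamate transporter, averaged 0.215 ± 0.0796 CPM in knockout and 16.4 ± 8.48 CPM in het clones (-6.22, adjusted p = 0.000719, edgeR's quasi-likelihood test), and it is the 1 of these 6 that entered the test only through the het clones. Slc1a4, a neutral amino acid transporter, averaged 13.1 ± 0.434 CPM in knockout and 50.2 ± 6.41 CPM in het clones (-1.94, adjusted p = 0.000250, edgeR's quasi-likelihood test). The glutamine transporter Slc38a1 averaged 17.2 ± 4.41 CPM in knockout and 223 ± 69.7 CPM in het clones (-3.70, adjusted p = 0.000773, edgeR's quasi-likelihood test). Glul, the glutamine synthetase, averaged 1.47 ± 0.459 CPM in knockout and 12.4 ± 3.91 CPM in het clones (-3.08, adjusted p = 0.00232, edgeR's quasi-likelihood test). Markers of neural and retinal cells were read as well. The 5 of them reported here summed to 1.23 to 1.53 CPM in knockout and 12.04 to 24.2 CPM in het clones, and the 2 that were tested were both lower in knockout clones. Neither had 10 counts in every knockout clone (Sox2 had 14, 10 and 4, and Tubb3 had 4, 3 and 16). Both therefore entered the test only with het clones, where they are high. Sox2 averaged 0.559 CPM in knockout and 8.08 CPM in het clones, and Tubb3 averaged 0.419 CPM in knockout and 7.90 CPM in het clones. Pax6, Rlbp1 and Gfap averaged under 1 CPM in both genotypes. Their part in the levels of Slc1a2 and its relatives was not tested.

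**Figure D5:**
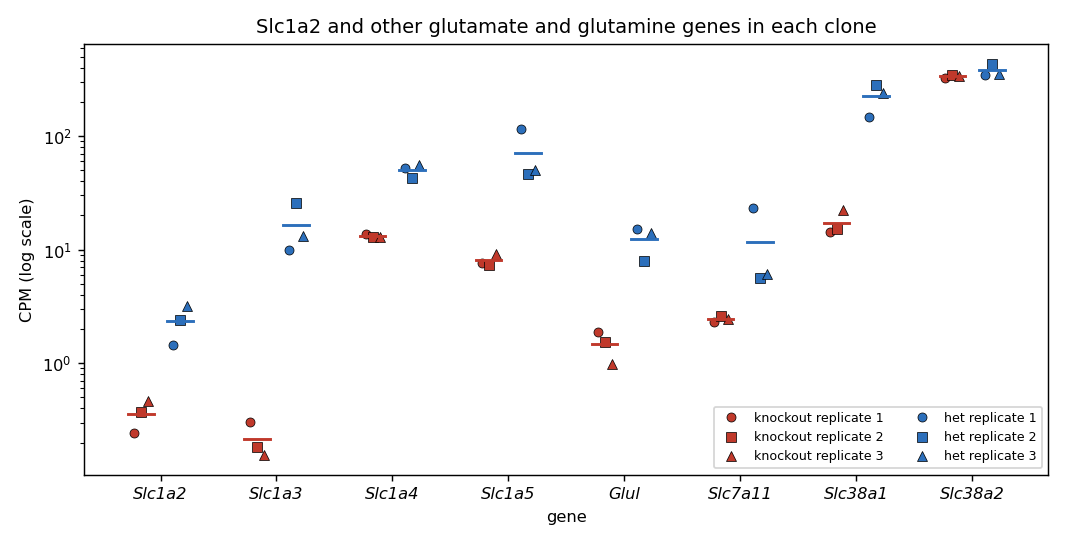
Level of Slc1a2 and of the 7 tested glutamate and glutamine genes in CPM (log scale) in the 3 knockout clones (red) and 3 het clones (blue), with the bar at the mean of a genotype. All 8 genes lie lower in every knockout clone than in any het clone (groups do not overlap in 47.5% of all tested genes), and Slc38a2, with the closest groups, did not pass the test (log2 fold change -0.17).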

How the data were processed

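Poly(A) RNA from 3 knockout and 3 het clones was made into libraries with a stranded kit, per the labels' protocols. The sources used here do not say whether counting used strand. The submitters' processing notes name Trimmomatic 0.36, kallisto 0.42.5, edgeR and GRCm38.p4. The authors deposited estimated counts for 96626 transcripts, of which 48.0% of values were not whole. They also deposited FPKM for 24799 transcripts, and a table of log2 fold changes, log2 mean CPM and p-values, per the file headers. Genes were matched to transcripts with GENCODE M21 (95213 matched, 260 through the authors' table), and 1153 without a match were left out (0.0174% to 0.0278% of counts). Counts were summed per gene, rounded to whole numbers, filtered (filterByExpr, minimum 10), TMM-scaled and tested with edgeR 4.0.16 (robust quasi-likelihood F test, two-sided, Benjamini-Hochberg over 12745 genes, R 4.3.3). Transcripts were tested likewise. CPM per kb divides each transcript's CPM by its length. Shared reads were split by estimation, and antisense partners of the 8 genes were not analysed here. The test was also run on counts simulated from its own fitted model, which cannot show that the model holds for these clones.

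Alternatives were RLE scaling, library totals, no filter, CPM above 1 in at least 3 samples, DESeq2 1.42.0, limma-voom and limma 3.58.1 on log2(FPKM + 1) and log2(FPKM + 0.1), only the transcripts of the authors' table, and each clone left out. Members and gene lists were chosen with earlier results of these data known, and a gene of the glutamate list and a gene of the neural list are not reported here, nor in those lists' counts and sums. Genes named besides the members were the nearest tested genes outside the stretch, the 5 others within 5 Mb with the lowest adjusted p, up to 4 called genes of each list by adjusted p, and the 5 most like Trim44.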

Additional observations from a re-analysis of the deposited data

How the results depend on the processing

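With no filter on low counts 2 neighbour genes were called instead of 1 (Slc1a2 and Fjx1), and 0 neighbour transcripts instead of 1. With only the transcripts of the authors' table the neighbour count was 0, since Slc1a2 has none there, and on both FPKM scales the 1 called neighbour was Commd9. The 7 calls of the low-density lipoprotein receptor family were 4 with limma-voom and on both FPKM scales, and 3 with the authors' transcripts. Leaving out each clone, the ranges were 1566 to 3825 for all genes called (3585 with all clones), 1 to 1 for neighbour genes, 0 to 1 for neighbour transcripts, 4 to 9 for genes near Trim44 (9) and 25 to 55 for the lists together (57 of 152 tested). These fits have fewer samples, and other causes were not tested. Beside the 57 calls of the lists, 28.1% of all genes were called. The 57 include Trim66, Tlr6, Irak3, Vldlr, Lrp2 and Slc1a3, which entered the test only through 1 genotype. Trim44 had 0 knockout counts in each form of the counts. Traf6, Prr5l and Ldlrad3 passed in none of their 15 alternative fits. Fjx1 and Pamr1, with 19 and 10 counts in het clones, are limited by depth. No paired analysis was possible because the labels give no shared replicate numbers.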

Other observations

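Trim44, Fjx1 and Pamr1 formed a run of 3 adjacent protein-coding genes without counts in knockout clones, a pattern noticed after the values were seen. Among protein-coding genes with at least 10 counts in all, knockout clones had 10 runs of 2 or more such adjacent genes and het clones had 1. The longest, of 5 genes, also lies on chromosome 2 (74652991 to 74695105) and holds Evx2 and Hoxd13 to Hoxd10, with 157, 5223, 202, 1647 and 1228 summed het counts. The other run of 3 genes, Lrfn3, Nfkbid and Aplp1 on chromosome 7 (30355489 to 30445535), had 22, 84 and 74 summed het counts. The Trim44 run spans 102300119 to 102643041 with 5521, 19 and 10 summed het counts. The run in het clones, of 2 genes, holds Zpbp and Spata48 on chromosome 11, with 23 and 16 summed knockout counts. Single genes without counts, of any gene type, were also more numerous in knockout clones. At 10 to below 20 summed counts in the other genotype, 82 genes had none in knockout and 31 none in het clones. At 20 to below 100 these numbers were 90 and 21. Whether the 10 runs against 1 exceed what such numbers alone would give was not tested. Trim44 was itself chosen for having no counts in knockout clones.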
